A study of Setaria viridis with 22 samples.

Results

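The TAW1 family genes of *Setaria viridis* were followed in whole inflorescences of the wild-type accession A10.1 and of the mutant *spp1* (*sparse panicle1*). The 4 genes were taken by name out of the 35214 genes with a value, with no threshold on their values but with earlier results of these data known. They are *SvTAW1* (*Sevir.9G221800*) and the *SvTAW1*-like genes *Sevir.7G176000*, *Sevir.1G244200*, and *Sevir.4G277900*. The tables annotate all 4 with the DUF640 domain, and for all 4 they name *LSH6* as the closest Arabidopsis gene. The study itself showed them among genes it had called on these same libraries, so the libraries are not independent evidence of the direction of their genotype difference.

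RNA was sequenced from 22 libraries in 6 groups. A10.1 and *spp1* each had 4 libraries at 10 days after sowing (DAS), 3 at 12 DAS, and 4 at 14 DAS. Each library was a pool of 10 to 30 inflorescence primordia, dissected by hand from plants grown under the same chamber conditions. The *spp1* plants were in the A10.1 background and carried a mutation in *SPP1*, which encodes an auxin importer of the AUX1 type. The labels name no batch, and the A10.1 reads had also served an earlier study, so a batch and the genotype cannot be told apart. Nor can fewer cells of a type and less RNA per cell be told apart in such bulk tissue. Between 10434407 and 24255447 first reads of the pairs were mapped per library. Replicate 4 of *spp1* at 14 DAS stood apart, with the fewest mapped reads, the lowest share of reads mapped (86.69%), and a score of -58.23 on the second principal component, where the other libraries lay between -22.43 and 26.39. The labels name the locus and no allele. *SPP1* itself had a mean of 27.4 FPKM (fragments per kilobase of transcript, scaled to the fragments mapped in the library) in A10.1 at 10 DAS against 22.5 in *spp1*, 27.0 against 18.4 at 12 DAS, and 32.6 against 20.8 at 14 DAS. For *SPP1* the genotypes did not overlap at 12 and 14 DAS, where 12.8% and 14.3% of all genes tested did not overlap in either direction. The log2 difference of *SPP1* at 14 DAS, -0.65 ± 0.16 (SE), missed the threshold by limma (adjusted p = 0.072).

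*TAW1* genes belong to the ALOG family of small plant nuclear proteins, which share the DUF640 domain and act on transcription. In rice, *TAWAWA1* (*TAW1*) keeps meristems of the inflorescence in a branching state and delays their turn to spikelets, and rice plants with more *TAW1* activity make more branches. MADS-box genes of the SVP type act downstream of it in rice. In grass inflorescences, branch meristems give way to spikelet meristems as the panicle matures, so genes of this kind are of interest at the stages sampled here.

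All 4 genes were expressed in all 22 libraries, and all 4 fell with stage in both genotypes. The order of their levels was led by *Sevir.7G176000*, which was the highest of the 4 in 22 of 22 libraries. FPKM is a value per length, so levels can be compared between genes. How reads that fit more than 1 gene of the family were assigned is not given in the sources used here, and their part in each value was not assessed.

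**Figure D1:**
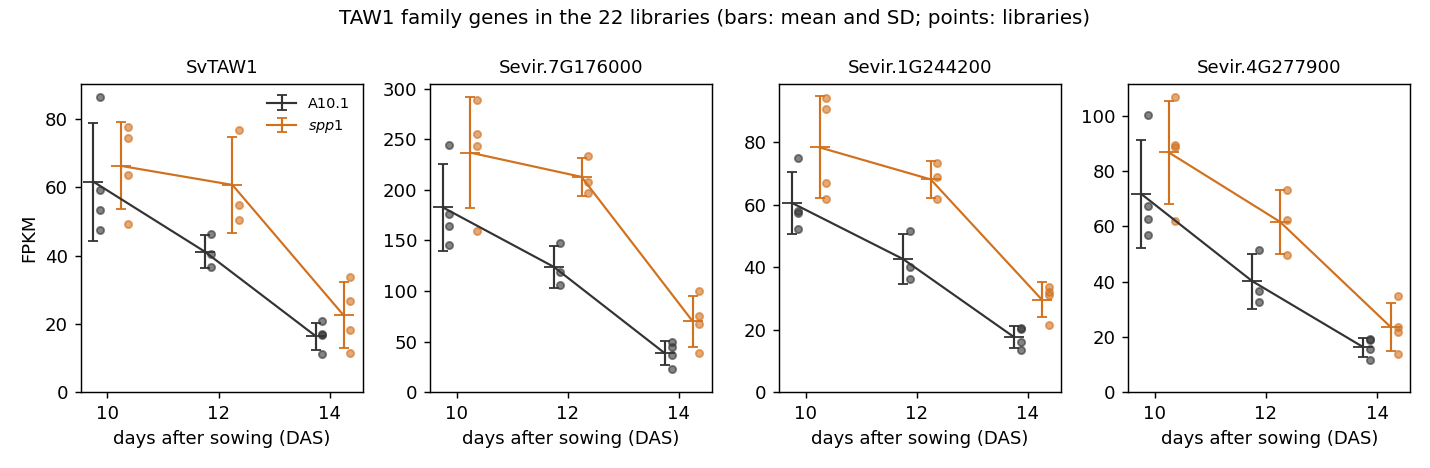
FPKM of each TAW1 family gene (vertical axes, from 0, a scale per gene) against days after sowing, in A10.1 (black) and *spp1* (orange); points are libraries, and lines and bars give the mean and SD of the 3 or 4 libraries of a group. All 4 genes are lowest at 14 DAS in both genotypes, and at 12 DAS the *spp1* means lie above the A10.1 means, as for *Sevir.7G176000* with 213 against 124 FPKM.

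*SvTAW1*, the gene nearest to rice *TAW1* by name, measured 86.53, 53.28, 47.38, and 59.16 FPKM in the 4 A10.1 libraries at 10 DAS and 63.59, 77.63, 49.35, and 74.29 FPKM in *spp1*. At 12 DAS it measured 46.41, 40.56, and 36.55 FPKM in A10.1 and 54.78, 76.75, and 50.48 FPKM in *spp1*. At 14 DAS the values were 20.73, 16.96, 16.83, and 11.16 FPKM in A10.1 and 26.81, 33.58, 18.23, and 11.55 FPKM in *spp1*. The genotypes overlapped at 10 and 14 DAS and did not overlap at 12 DAS. At 14 DAS the lowest *spp1* library, replicate 4, lay within the A10.1 range.

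*Sevir.7G176000*, the most abundant of the *SvTAW1*-like genes, measured 244.26, 164.54, 145.88, and 176.50 FPKM in A10.1 at 10 DAS and 243.69, 288.62, 159.74, and 255.05 FPKM in *spp1*. At 12 DAS it had 147.02, 118.66, and 106.11 FPKM in A10.1 and 197.05, 233.96, and 207.41 FPKM in *spp1*. At 14 DAS it had 50.12, 36.32, 44.32, and 23.08 FPKM in A10.1 and 74.95, 99.66, 67.43, and 38.30 FPKM in *spp1*. At 12 DAS the lowest *spp1* library exceeded the highest A10.1 library, and at 14 DAS 3 of 4 *spp1* libraries did. Its highest library, replicate 2 of *spp1* at 10 DAS, held 12.5 times the value of its lowest, replicate 4 of A10.1 at 14 DAS.

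*Sevir.1G244200* measured 74.85, 57.22, 57.93, and 52.17 FPKM in A10.1 at 10 DAS and 66.78, 90.40, 61.81, and 94.07 FPKM in *spp1*. At 12 DAS the values were 51.48, 36.24, and 40.08 FPKM in A10.1 and 68.91, 73.38, and 61.80 FPKM in *spp1*. At 14 DAS they were 20.69, 16.09, 20.21, and 13.51 FPKM in A10.1 and 31.96, 33.75, 31.20, and 21.48 FPKM in *spp1*. The genotypes did not overlap at 12 or at 14 DAS for this gene, although at 14 DAS replicate 4 of *spp1* was only just above the highest A10.1 library.

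*Sevir.4G277900* measured 100.33, 67.27, 62.79, and 56.85 FPKM in A10.1 at 10 DAS and 106.86, 89.38, 62.03, and 88.72 FPKM in *spp1*. At 12 DAS it had 51.51, 36.44, and 32.70 FPKM in A10.1 and 49.78, 73.01, and 62.28 FPKM in *spp1*. At 14 DAS it had 18.75, 19.25, 15.55, and 11.74 FPKM in A10.1 and 23.42, 34.94, 21.80, and 13.77 FPKM in *spp1*. Its genotypes overlapped at every stage, with 1 *spp1* library inside the A10.1 range at 12 DAS and 1 at 14 DAS.

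The rate of fall was measured as the slope of log2(FPKM + 1) on days after sowing, fitted by limma in the 11 libraries of each genotype. In A10.1 the slope per day was -0.46 ± 0.05 (SE) for *SvTAW1*, -0.56 ± 0.07 for *Sevir.7G176000*, -0.43 ± 0.05 for *Sevir.1G244200*, and -0.52 ± 0.05 for *Sevir.4G277900*. In *spp1* it was -0.40 ± 0.08, -0.45 ± 0.08, -0.34 ± 0.05, and -0.47 ± 0.07, in the same order of genes. All 4 genes passed the threshold in both genotypes, with an adjusted p of at most 4.13e-05 in A10.1 and at most 0.00503 in *spp1* (limma, Benjamini-Hochberg over all genes tested, threshold 0.05). As background, 16.7% of all genes tested fell in A10.1 and 9.88% in *spp1*. *Sevir.7G176000* had the steepest slope of the 4 in A10.1, lower than all but 81 of 17871 genes tested, and *Sevir.4G277900* had the steepest in *spp1*, lower than all but 133 of 17902.

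On the FPKM scale, *SvTAW1* at 14 DAS kept 26.7% of its 10 DAS mean in A10.1 and 34.0% in *spp1*. *Sevir.7G176000* kept 21.0% in A10.1 and 29.6% in *spp1*. *Sevir.1G244200* kept 29.1% and 37.8%, and *Sevir.4G277900* kept 22.7% and 27.1%. The share kept was thus higher in *spp1* for all 4, but the slopes themselves were not shown to differ. The slope in *spp1* minus that in A10.1 was 0.06 log2 units per day for *SvTAW1* (95% interval -0.16 to 0.28), 0.12 for *Sevir.7G176000* (-0.12 to 0.35), 0.09 for *Sevir.1G244200* (-0.07 to 0.25), and 0.04 for *Sevir.4G277900* (-0.14 to 0.23). None of the 4 passed (adjusted p from 0.747 to 0.895 by limma, and 0 of 4 with an unadjusted p under 0.05), where 0.0391% of all genes tested passed and 7.01% had an unadjusted p under 0.05. The intervals leave room for slopes that differ by 0.23 to 0.35 log2 units per day.

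**Figure D2:**
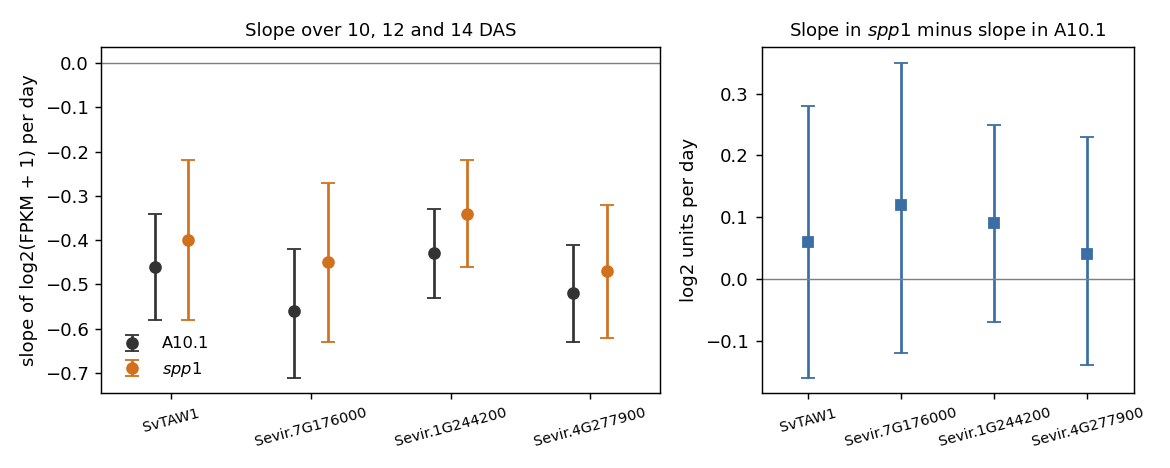
Left, slope of log2(FPKM + 1) per day for each gene in A10.1 (black) and *spp1* (orange); right, the slope in *spp1* minus the slope in A10.1 in log2 units per day; points are limma estimates and bars their 95% intervals. All 8 slopes lie below 0, from -0.56 to -0.34, and all 4 intervals of the difference include 0.

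On the log2 scale, most of the fall lay between 12 and 14 DAS. In A10.1 that step was -1.30 ± 0.21 (SE) on the log2 scale for *SvTAW1*, -1.70 ± 0.24 for *Sevir.7G176000*, -1.23 ± 0.17 for *Sevir.1G244200*, and -1.25 ± 0.22 for *Sevir.4G277900*. In *spp1* it was -1.47 ± 0.30, -1.66 ± 0.27, -1.19 ± 0.18, and -1.41 ± 0.26. All 4 genes passed in A10.1 (adjusted p 0.00132 to 0.00539), where 2.74% of all genes tested fell, and all 4 passed in *spp1* (0.00809 to 0.0366), where 0.877% fell. Every library of 14 DAS lay below every library of 12 DAS for each gene in each genotype, a separation shared by 8.56% of all genes tested in A10.1 and 7.03% in *spp1*. The calls in *spp1* rested on few libraries. Without replicate 2 of *spp1* at 12 DAS none of the 4 passed (adjusted p 0.174, 0.0816, 0.0566, and 0.135). Without replicate 4 of that group only *Sevir.1G244200* did.

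From 10 to 12 DAS the log2 change was smaller, although in mean FPKM *Sevir.4G277900* in A10.1 went from 71.8 to 40.2 and then to 16.3 at 14 DAS, the larger step being the earlier one. In A10.1 the log2 change was -0.54 ± 0.21 (SE) for *SvTAW1*, -0.54 ± 0.24 for *Sevir.7G176000*, -0.50 ± 0.17 for *Sevir.1G244200*, and -0.81 ± 0.22 for *Sevir.4G277900*. All 4 had an unadjusted p under 0.05, as did 29.1% of all genes tested in either direction. Of the 4, only *Sevir.4G277900* passed (adjusted p = 0.0267, with 6.37% of all genes tested falling), and it no longer did without replicate 1 or 2 of 10 DAS or without replicate 2 or 4 of 12 DAS (adjusted p 0.0516, 0.0544, 0.0917, and 0.116). In *spp1* the same step was -0.13 ± 0.30, -0.12 ± 0.27, -0.18 ± 0.18, and -0.48 ± 0.26, with no call (adjusted p 0.315 to 0.815, with 1.42% of all genes tested falling). None of the 4 had an unadjusted p under 0.05 in *spp1*, as 20% of all genes tested did. The 12 DAS mean of *SvTAW1* was 66.9% of its 10 DAS mean in A10.1 and 91.6% in *spp1*, and for *Sevir.7G176000* these shares were 67.8% and 89.9%. In A10.1 the 12 DAS libraries lay below every 10 DAS library for 3 of the genes (9.09% of all genes tested), and in *spp1* for none of the 4 (6.99%). The difference between genotypes in this step was not shown: it was 0.41 ± 0.39 (SE) for *SvTAW1*, 0.42 ± 0.39 for *Sevir.7G176000*, 0.32 ± 0.26 for *Sevir.1G244200*, and 0.34 ± 0.37 for *Sevir.4G277900*, with an adjusted p of 1 for each and an unadjusted p of 0.23 or higher. For this contrast 0% of all genes tested passed, and 1.85% had an unadjusted p under 0.05. The F test of genotype by stage also passed for none of the 4 (adjusted p 0.939 to 0.959; 0.0615% of all genes tested passed).

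The level in *spp1* was compared with that in A10.1 stage by stage. All 4 genes had a higher mean in *spp1* at all 3 stages, and none of the 4 passed the threshold by limma at any stage in the main fits. Of all genes tested, 42.5% had an estimate above 0 at 10 DAS, 49.6% at 12 DAS, and 35.4% at 14 DAS. At 10 DAS the log2 difference was 0.12 ± 0.20 (SE) for *SvTAW1*, 0.37 ± 0.20 for *Sevir.7G176000*, 0.35 ± 0.16 for *Sevir.1G244200*, and 0.28 ± 0.20 for *Sevir.4G277900*, and limma gave all of them an adjusted p of 0.96. At that stage 0 of 4 had an unadjusted p under 0.05, against 4.16% of all genes tested, and 0.0167% of all genes tested were called higher. The genotypes overlapped for all 4 genes, and 1.32% of all genes tested had every *spp1* library on top. Replicate 1 of A10.1 was the highest A10.1 library for each of the 4 genes, and without it the differences were 0.29, 0.51, 0.46, and 0.45, still with no call (adjusted p 0.847 to 0.868).

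At 12 DAS the differences were 0.53 ± 0.16 (SE) for *SvTAW1* (adjusted p = 0.278), 0.78 ± 0.13 for *Sevir.7G176000* (0.0568), 0.67 ± 0.14 for *Sevir.1G244200* (0.0967), and 0.61 ± 0.19 for *Sevir.4G277900* (0.278). In mean FPKM these were 1.47, 1.72, 1.6, and 1.53 times the A10.1 level. All 4 had an unadjusted p under 0.05, as did 9.05% of all genes tested, and 0.0903% of all genes tested were called higher. Every *spp1* library exceeded every A10.1 library for 3 of the 4 genes, which was so for 7.37% of all genes tested. With 3 libraries against 3, the two-sided exact permutation test gave its smallest possible p, 0.1, for those 3 genes and 0.2 for *Sevir.4G277900*.

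At 14 DAS the differences were 0.36 ± 0.30 (SE) for *SvTAW1* (adjusted p = 0.445), 0.83 ± 0.30 for *Sevir.7G176000* (0.169), 0.72 ± 0.17 for *Sevir.1G244200* (0.0699), and 0.45 ± 0.25 for *Sevir.4G277900* (0.289). In mean FPKM they were 1.37, 1.82, 1.68, and 1.44 times the A10.1 level. Unadjusted, *Sevir.7G176000* and *Sevir.1G244200* had a p under 0.05, as did 22.9% of all genes tested, and 0.68% of all genes tested were called higher. *Sevir.1G244200* was the only one of the 4 whose genotypes did not overlap, as did not those of 4.09% of all genes tested in this direction, and its exact permutation p was 0.0286, the smallest that 4 against 4 allow. The exact p of the other genes was 0.343 for *SvTAW1*, 0.0857 for *Sevir.7G176000*, and 0.171 for *Sevir.4G277900*, among 12 exact tests in all, whose p values are given unadjusted.

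The result for *Sevir.1G244200* at 14 DAS lay close to the threshold and crossed it under some other settings. With a library left out it passed in 1 of 8 runs (limma's adjusted p up to 0.199). Among the other processing settings it passed in 3 of 6 (adjusted p up to 0.116). It passed without replicate 4 of *spp1* (0.86, adjusted p = 0.0177), with each library scaled by its median ratio (0.82, adjusted p = 0.0273), and in a joint fit of the 6 groups (0.72, adjusted p = 0.0163). *Sevir.7G176000* had 1.08 without replicate 4 of *spp1* (adjusted p = 0.0509) and passed in the joint fit (0.83, adjusted p = 0.0488). It passed in 0 of 8 runs with a library left out (limma's adjusted p up to 0.32). Among the other processing settings it passed in 2 of 6 (adjusted p up to 0.245). *SvTAW1* and *Sevir.4G277900* had 0.63 and 0.67 without that replicate, with adjusted p of 0.18 and 0.118. Replicate 4 lay below the mean of its group by 0.42 to 0.81 on the log2 scale for the 4 genes, the largest mean deviation of any library (-0.67).

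**Figure D3:**
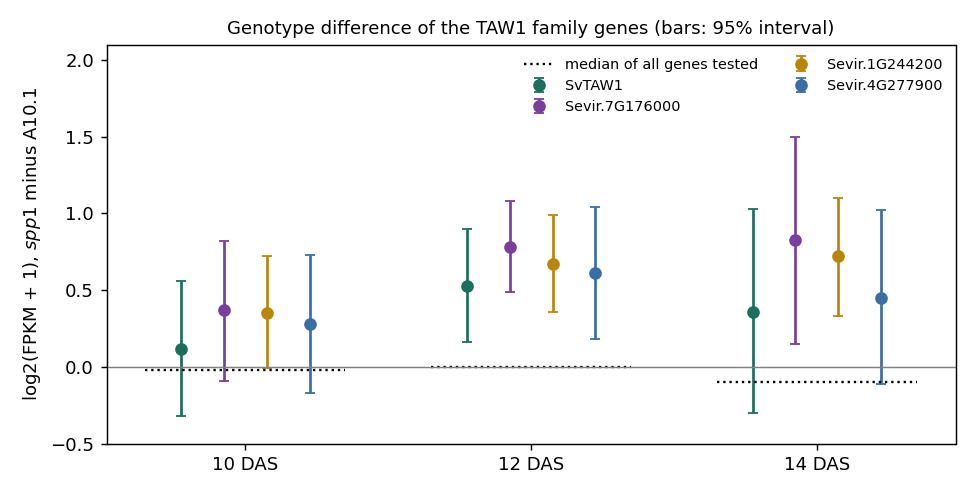
Difference of log2(FPKM + 1) between *spp1* and A10.1 (vertical axis) for each TAW1 family gene at 10, 12, and 14 DAS; points are limma estimates from the libraries of the stage, bars their 95% intervals, and dotted lines the median over all genes tested. All 12 estimates lie above 0, from 0.12 to 0.83, and the medians over all genes lie between -0.097 and -0.001.

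Levels of photosynthesis genes were examined beside the family. The tables describe 9 genes as chlorophyll a-b binding proteins, used here as leaf markers, and none was at 0. Only genes in the study's tables of called genes, made from these libraries, carry a description. The 9 are therefore not a like sample of all genes, and the shares over all genes beside them are no fair reference for their direction. At 14 DAS their summed level lay between 1381.7 and 1919.4 FPKM in A10.1 and between 1984.5 and 3275.6 FPKM in *spp1*, without overlap, and at 12 DAS between 2470.1 and 3484 FPKM and between 3135.8 and 3925.9 FPKM. All 9 had a higher estimate in *spp1* at 14 DAS, with a median log2 difference of 0.61, where 35.4% of all genes tested were above 0. Of the 9, 1 passed, *Sevir.6G164700* (0.62, adjusted p = 0.0488), where 0.68% of all genes tested were called higher. At 12 DAS all 9 were also above 0 (49.6% of all genes tested), with a median of 0.19 and no call, while the median of the TAW1 family genes there was 0.64. All 9 fell with stage in both genotypes, as did 16.7% of all genes tested in A10.1 and 9.88% in *spp1*. The part of leaf or green tissue in the difference of the TAW1 family genes was not tested. The KNOX genes *Sevir.9G107200* and *Sevir.9G073300*, which mark inflorescence meristems, were present in every group. Their summed level was 31.5 to 59.6 FPKM in A10.1 and 37 to 69.8 in *spp1* at 10 DAS, 60.3 to 78.8 and 48.8 to 64.2 at 12 DAS, and 72.1 to 86.3 and 55.3 to 71.7 at 14 DAS, where the genotypes did not overlap. Neither gene passed between genotypes at any stage (log2 differences of -0.52 and 0.56 at 12 DAS and -0.35 and -0.37 at 14 DAS, in the order named, with limma's adjusted p from 0.165 to 0.341), and the part of meristem content in the difference of the TAW1 family genes was not tested.

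**Figure D4:**
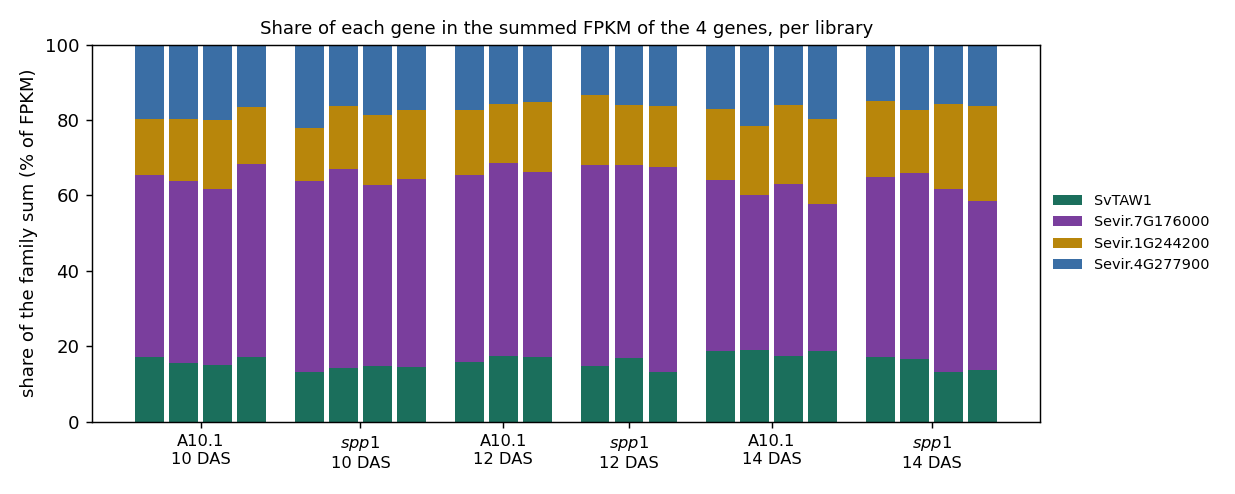
Share of each TAW1 family gene in the summed FPKM of the 4 genes (vertical axis, percent) in each of the 22 libraries, ordered by group and replicate. *Sevir.7G176000* takes the largest share in every library, from 38.8% to 54.3%, and the other genes each take 13.1% to 25.2%.

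The summed level of the 4 genes in A10.1 was 377 ± 87.3 FPKM (SD, n = 4) at 10 DAS, 248 ± 42.8 (n = 3) at 12 DAS, and 88.8 ± 21.5 (n = 4) at 14 DAS. In *spp1* it was 468 ± 93.9, 403 ± 47, and 146 ± 48.4 FPKM. The sum in *spp1* was 1.24, 1.63, and 1.64 times that in A10.1 at 10, 12, and 14 DAS, and the groups did not overlap at 12 DAS. No test was made on the sum or on the shares, which describe the 4 genes together. The shares of a library are parts of the same sum, so a lower share of a gene is offset by the others.

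*Sevir.7G176000* made up close to the same part of the sum at 10 and 12 DAS and less at 14 DAS. Its share in A10.1 was 48.5% ± 1.98 (SD) at 10 DAS, 50.0% ± 1.02 at 12 DAS, and 42.7% ± 3.41 at 14 DAS, where all 4 libraries lay below those of the earlier stages. In *spp1* it was 50.3% ± 2.03, 52.9% ± 1.58, and 47.7% ± 1.9, and the libraries of 14 DAS (45.0% to 49.4%) overlapped those of 10 DAS (48.0% to 52.9%). *Sevir.1G244200* went the other way. Its share in A10.1 was 16.3% ± 1.68, 17.2% ± 1.5, and 20.1% ± 2.08, and in *spp1* 16.8% ± 2.17, 16.9% ± 1.43, and 21.2% ± 3.6. It was the gene with the shallowest slope in each genotype. *Sevir.4G277900* took 19.0% ± 1.67, 16.1% ± 1.15, and 18.6% ± 2.59 of the sum in A10.1 and 18.6% ± 2.56, 15.2% ± 1.57, and 16.0% ± 1.0 in *spp1*.

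*SvTAW1* took a smaller share in *spp1* than in A10.1 at each stage. The means were 14.2% ± 0.692 (SD) against 16.2% ± 1.06 at 10 DAS, 14.9% ± 1.79 against 16.7% ± 0.944 at 12 DAS, and 15.1% ± 2.03 against 18.5% ± 0.784 at 14 DAS. The libraries of the genotypes did not overlap at 10 and 14 DAS. *Sevir.7G176000* had the opposite tendency, which is not independent of the lower share of *SvTAW1*. Its share was higher in *spp1* by 1.82, 2.88, and 4.93 percentage points, with no overlap at 12 DAS. The FPKM of *Sevir.7G176000* was 2.99 ± 0.123 (SD) times that of *SvTAW1* in A10.1 at 10 DAS, 3.00 ± 0.147 at 12 DAS, and 2.32 ± 0.26 at 14 DAS, and 3.56 ± 0.27, 3.58 ± 0.53, and 3.19 ± 0.40 times in *spp1*. Below *Sevir.7G176000* the order of the other genes was not fixed: *SvTAW1* was the lowest of the 4 in 12 of 22 libraries, *Sevir.4G277900* in 6, and *Sevir.1G244200* in 4. Their means differed by less than their SDs in A10.1 at 12 DAS and at 14 DAS. At 14 DAS they were 16.4 ± 3.95, 17.6 ± 3.43, and 16.3 ± 3.47 FPKM for *SvTAW1*, *Sevir.1G244200*, and *Sevir.4G277900*.

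The genes followed each other from library to library. Over the 22 libraries, which share the fall with stage, Pearson's r of log2(FPKM + 1) lay between 0.955 and 0.984 for the 6 pairs. After the mean of each group was taken away, r still lay between 0.711 and 0.939, and without replicate 4 of *spp1* at 14 DAS between 0.618 and 0.909. Genes of 1 library share its tissue pool and its depth. Within groups, r was not computed for pairs outside the family, and the part of reads that fit more than 1 of the 4 genes was not assessed. The library highest for the family within its group was replicate 1 in A10.1 at each stage, and replicate 2 in *spp1* at each stage.

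The differences of the family were set beside those of genes that fell in A10.1. At 14 DAS, the 979 tested genes that had fallen from 10 to 12 DAS in A10.1 had a median difference of 0.23 between *spp1* and A10.1, and 78.4% of them were above 0, where the median of all genes tested was -0.10 and 35.4% were above 0. Of the 4 genes only *Sevir.4G277900* is itself in that set. Set beside its values, *Sevir.7G176000* (0.83) exceeded 97.8%, *Sevir.1G244200* (0.72) 95.2%, *Sevir.4G277900* (0.45) 77.7%, and *SvTAW1* (0.36) 66.8%. Similar comparisons, added after the values were seen, used the genes that fell from 10 to 14 DAS, compared at 12 DAS (median 0.15, 80% above 0), and those that fell from 12 to 14 DAS, compared at 10 DAS (median 0.06, 64.9% above 0). Both of these sets hold all 4 genes. At 12 DAS the 4 genes exceeded 89.2% to 97.3% of such genes, and at 10 DAS 61% to 96.1%. The 4 genes were among the steepest of both sets. Of 17871 genes tested in A10.1, only 81 to 236 had a lower change than 1 of them from 10 to 14 DAS. From 12 to 14 DAS only 6 to 62 did. Genes with a fall of like size were not compared, so the part of the size of the fall in these shares was not tested. The estimates of the fall and of the genotype difference share no library in these comparisons, but the calls of the fall came from 1 fit of the 11 A10.1 libraries, whose filter and spread also used those of the stage compared.

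The *spp1* levels were also set beside those of the A10.1 stage before. For *SvTAW1*, *Sevir.7G176000*, and *Sevir.1G244200*, 3 of 3 *spp1* libraries at 12 DAS lay within the range of the A10.1 libraries at 10 DAS, and for *Sevir.4G277900* 2 of 3 did. All *spp1* libraries lay within that range for 24.5% of all genes tested. The top of that range was replicate 1 of A10.1 for each gene. Without it, 2 of 3 *spp1* libraries lay within the range for *SvTAW1* and 1 of 3 for *Sevir.4G277900*, while 3 of 3 lay above it for *Sevir.7G176000* and *Sevir.1G244200*. At 14 DAS all 4 *spp1* libraries lay below every A10.1 library of 12 DAS for the same 3 genes, as for 5.13% of all genes tested. On straight lines between the A10.1 means, the *spp1* mean at 12 DAS lay above the A10.1 mean of 10 DAS, with no matching day, for *Sevir.7G176000* and *Sevir.1G244200*. For *SvTAW1* it was 60.7 FPKM against 61.6 in A10.1 at 10 DAS, and in 3 of the 22 runs with a library left out it had no matching day. For *Sevir.4G277900* it lay between the A10.1 means of 10 and 12 DAS in all of them. The *spp1* level at 14 DAS matched the A10.1 level of 13.4 DAS for *SvTAW1*, 13.0 DAS for *Sevir.7G176000*, 12.8 DAS for *Sevir.1G244200*, and 13.3 DAS for *Sevir.4G277900*. With 1 library left out at a time the days matched to 14 DAS ranged from 12.6 to 13.8. This reading was chosen after the values were seen and carries no test.

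The genes most like *SvTAW1* over the 22 libraries, by Pearson's r and with the family left out, were *Sevir.1G356400* (0.981), *Sevir.9G104600* (0.970), *Sevir.7G068200* (0.968), *Sevir.2G133400* (0.967), and *Sevir.1G143300* (0.961). *Sevir.9G104600* is annotated as a serine carboxypeptidase and *Sevir.2G133400* as a dehydrodolichyl diphosphate synthase, while the others carry no named function in the tables. Those most like the mean of the 4 standardised profiles were *Sevir.9G104600* (0.979), *Sevir.7G068200* (0.976), *Sevir.1G356400* (0.975), *Sevir.1G143300* (0.974), and *Sevir.6G256900* (0.965), a gene with a C2 domain. Among all 17895 other genes, *Sevir.7G176000* came second in likeness to *SvTAW1* (0.980), *Sevir.4G277900* the third (0.972), and *Sevir.1G244200* the tenth (0.955). A profile like that of *SvTAW1* was not confined to the family: 602 genes outside it had an r above 0.8 with *SvTAW1*, 3.36% of those compared.

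Of the 7 genes annotated with DUF640, the other 3 were much lower. Annotation covers 2952 of the 35214 genes, those that the study called, so further DUF640 genes may be missing from the 7. The 4 TAW1 family genes made up 94.5% ± 0.966 (SD) of the FPKM of all 7 at 10 DAS in A10.1, 95.6% ± 0.773 at 12 DAS, and 87.8% ± 2.92 at 14 DAS, and 95.7% ± 0.437, 96.2% ± 0.433, and 94.2% ± 2.01 in *spp1*. *Sevir.5G372400* fell like the family, in A10.1 (slope -0.47 ± 0.04 SE, adjusted p = 5.75e-06) and in *spp1* (slope -0.42 ± 0.06, adjusted p = 0.000651). At 12 DAS its mean was 2.8 FPKM against 5.89 in *spp1*, without overlap, as for 7.37% of all genes tested in this direction. The log2 difference of 0.88 ± 0.19 did not pass (adjusted p = 0.125). *Sevir.2G033100* went the other way at 14 DAS, where its *spp1* mean of 5.17 FPKM was 0.514 times the A10.1 mean, and the log2 difference of -0.88 ± 0.19 just missed the threshold (adjusted p = 0.0542). *Sevir.1G366000* stayed at or below 2.1 FPKM in all 22 libraries.

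As MADS-box genes of the SVP type, the kind that acts downstream of *TAW1* in rice, 3 genes were taken. Of these, only *Sevir.1G335300* is described as a MADS-box factor in the tables. *Sevir.4G075400* and *Sevir.9G518400* carry no description and were taken by the Arabidopsis symbol or rice description of their match. *Sevir.4G075400* is annotated with a K-box and no MADS domain, and *Sevir.9G518400* with no domain. At 14 DAS all 3 were above 0 in *spp1* (35.4% of all genes tested) and 1 was called higher (0.68%), *Sevir.4G075400*, with 58.2 FPKM against 40.5 in A10.1 (log2 difference 0.51 ± 0.10, adjusted p = 0.0361). *Sevir.9G518400* had 0.68 ± 0.17 (adjusted p = 0.0837) and *Sevir.1G335300* 0.27 ± 0.14 (adjusted p = 0.274). At 12 DAS all 3 were above 0 with no call, and at 10 DAS 1 of 3 was. All 3 fell with stage in A10.1 and 2 of 3 in *spp1*, where 16.7% and 9.88% of all genes tested fell. The list could take only annotated genes, which are those in the study's tables of called genes, made from these libraries.

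Among the 12 branching genes that the study displayed, chosen by it on these libraries, limma called none higher in *spp1* at any stage, with 0 of 10 tested, 5 of 11, and 4 of 12 higher at an unadjusted p under 0.05 at 10, 12, and 14 DAS. It called 2 of the 11 tested lower at 12 DAS (0.198% of all genes tested) and 3 of 12 lower at 14 DAS (1.25%). *SvTFL1*, a homolog of the genes that keep inflorescence meristems indeterminate, fell like the TAW1 family in A10.1 (slope -0.51 ± 0.04 SE, adjusted p = 2.97e-06) and in *spp1* (slope -0.40 ± 0.05, adjusted p = 0.000117). Its genotype difference was 0.09, 0.55, and 0.55 at 10, 12, and 14 DAS, with no call. *SvTFL1-like1* had a difference of 0.89 ± 0.19 at 14 DAS (adjusted p = 0.0523). The genes that passed were lower: *SvRA3*, a homolog of a maize gene of trehalose phosphate metabolism in the RAMOSA pathway, was at 42.1 ± 1.5 FPKM (SD, n = 4) in *spp1* and 146 ± 26.7 in the wild type at 14 DAS (log2 difference -1.76, adjusted p = 0.000491). *SvRA2* had -1.14 at 12 DAS and -1.08 at 14 DAS (adjusted p 0.0346 and 0.00888), and *SvBAF1*, a homolog of a maize AT-hook protein of axillary meristems, had -1.29 and -1.0 (adjusted p 0.0435 and 0.0133).

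Most spikelet genes changed with stage in the opposite direction. Of 5 MADS-box genes of spikelet identity, 4 rose with stage in both genotypes, where 31.8% of all genes tested rose in A10.1 and 7.92% in *spp1*. The other, *Sevir.3G374400*, described as MADS20-like, fell in both, as did 16.7% and 9.88% of all genes tested. That gene was the 1 of the 5 called higher in *spp1* at 14 DAS (0.71 ± 0.12 SE, adjusted p = 0.0244, with 0.68% of all genes tested called higher), and *Sevir.4G060800*, described as MADS5-like and rising with stage, was the 1 called lower (-1.21 ± 0.18, adjusted p = 0.0133, with 1.25% called lower). The floret organ marker *Sevir.5G305800*, MADS32-like, was also lower at 14 DAS (-0.62 ± 0.11, adjusted p = 0.0247). The spikelet genes, too, were listed with earlier results of these libraries known, so the shares over all genes are no fair reference for them. These lists were tested in the same fits as the TAW1 family genes, with p values adjusted over all genes.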

How the data were processed

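Per the labels and the study's methods, the authors trimmed reads of 100 bases with Trimmomatic, mapped them with TopHat2 and Bowtie2 on the *S. viridis* reference (genome version 1), and deposited FPKM values per primary transcript. Tool versions are not given in the sources used here. The percent of reads mapped per library was also deposited by the authors. Their tables of called genes hold group means, fold changes, p-values, and q-values, which were not used; only gene identifiers and descriptions were read from them, for 2952 genes. No identifier matched the reference table, so no coordinates or sequences are given. FPKM carries no depth, so no counting interval was computed.

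Values were analysed as log2(FPKM + 1) in R 4.3.3 with limma 3.58.1 (empirical Bayes with a trend), keeping genes whose mean over the fitted libraries reached 1 FPKM, with Benjamini-Hochberg adjustment over all genes and a threshold of 0.05. Fold changes on this scale understate those of low genes. Stages were compared within a genotype, genotypes within a stage, and differences of slopes over all 22 libraries. Exact permutation tests were two-sided (scipy 1.17.1). The fits were run on simulated data with planted effects. The planted differences between genotypes, in level and in slope, were larger than those found for the 4 genes. The power to detect differences of their size was therefore not assessed. Replicates are separate pools of inflorescences per the labels. Figures were drawn with matplotlib 3.10.9.

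The members and the lists were chosen with earlier results of these data known. Named were the 4 genes, the 5 most like *SvTAW1* and the 5 most like the family mean, up to 3 called genes of each list, *SvTFL1*, and *SvTFL1-like1*. Alternatives were a pseudocount of 0.1, no filter, a minimum mean of 5 FPKM, median ratio scaling, a replicate block, 1 fit of all 22 libraries, and leaving out each library.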

Additional observations from a re-analysis of the deposited data

Results flagged for a closer look

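A pair of values lay far from the other libraries of their group, among 36 sets of 4 libraries examined by the gap to the nearest library over the whole range; chance gives about 1 in 20. The summed FPKM of the TAW1 family genes was 506 in replicate 1 of A10.1 at 10 DAS, where the highest of the other 3 libraries was at 344.68, a gap of 0.84 of the range. In replicate 4 of the same group, *Sevir.4G277900* made up 16.5% of the sum, a gap of 0.901 of the range below the other libraries. Without replicate 4 the mean share of *Sevir.4G277900* in that group was 19.8%, against 19.0% with it.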

How the results depend on the processing

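Of 720 recomputed values of the 4 genes, 691 kept their direction and side of the threshold. With no filter on low FPKM, 3 falls no longer passed, at -0.81 for *Sevir.4G277900* from 10 to 12 DAS in A10.1 (adjusted p = 0.0523), -1.47 for *SvTAW1* from 12 to 14 DAS in *spp1* (0.0736), and -1.41 for *Sevir.4G277900* there (0.055); more genes were tested. At 14 DAS *Sevir.1G244200* passed with median ratio scaling (0.82) and in 1 fit of all 22 libraries (0.72), where *Sevir.7G176000* passed too (0.83). Median ratio scaling moved the median of all genes at 14 DAS by 0.096.

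The number of genes called between genotypes at 10 DAS, 5, was 15 with no filter, 1 with a mean of 5 FPKM, 15 with median ratio scaling, and 42 in 1 fit. At 12 DAS, 51 became 27 with a pseudocount of 0.1, 6 with no filter, 33 with scaling, and 93 in 1 fit. At 14 DAS, 341 became 1559 in 1 fit. Differing slopes, 7 genes, became 2 with a pseudocount of 0.1, 12 with no filter, 1 with a mean of 5 FPKM, and 0 with scaling. The causes were not tested.

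The replicate numbers were not taken to pair the libraries, but whether they do was not settled. Same-numbered libraries of the genotypes had correlations of their deviations from -0.063 to 0.234 at 10 DAS. These were 0.021 to 0.347 at 12 DAS and 0.068 to 0.297 at 14 DAS. Libraries of different numbers reached 0.285, 0.168, and 0.476 at the 3 stages. Between 12 and 14 DAS in *spp1*, same-numbered libraries had -0.173 to 0.515, and those of different numbers reached 0.404. With the replicate number as a block, *Sevir.7G176000* (0.78, adjusted p = 0.0329) and *Sevir.1G244200* (0.67, 0.0469) passed at 12 DAS and again at 14 DAS (0.83, 0.0451, and 0.72, 0.0258), as did *SvTAW1* (-0.58) and *Sevir.1G244200* (-0.47) from 10 to 12 DAS in A10.1. The block gave 2 called genes at 10 DAS and 256 at 12 DAS.

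With 1 library left out at a time, the 8 slopes all passed. From 12 to 14 DAS in *spp1* the values ranged from -1.69 to -1.20 for *SvTAW1*, -1.86 to -1.40 for *Sevir.7G176000*, -1.26 to -1.05 for *Sevir.1G244200*, and -1.62 to -1.19 for *Sevir.4G277900*, with calls lost without replicate 1, 2, or 4 of 12 DAS or replicate 3 of 14 DAS. From 10 to 12 DAS in A10.1 the range was -1.0 to -0.64 for *Sevir.4G277900* and -0.64 to -0.39 for *Sevir.1G244200*, which passed without replicate 4 of 10 DAS. At 14 DAS *Sevir.1G244200* ranged from 0.60 to 0.86. The slope difference of *Sevir.4G277900* ranged from 0.00 to 0.11 and turned just below 0 without replicate 3 of *spp1* at 10 DAS. Called genes ranged from 2 to 5 at 10 DAS, 9 to 81 at 12 DAS, 65 to 574 at 14 DAS, 0 to 13 for differing slopes, and 2350 to 5553 for slopes in *spp1*.

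As shares of all 7 DUF640 genes, *Sevir.7G176000* had 45.9%, 47.8%, and 37.6% in A10.1 over the 3 stages and 48.1%, 50.9%, and 44.9% in *spp1*; in A10.1 at 14 DAS *SvTAW1* had 16.2% and *Sevir.1G244200* 17.6%. The other shares, and all shares with a library left out, moved by less than 1 SD. Of the 5 genes most like *SvTAW1*, 3 stayed among the first 5 by Spearman's rho, 3 in A10.1 alone, and 2 in *spp1* alone.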
